A study of Homo sapiens with 12 samples.

Results

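HLA class I molecules carry peptides from inside the cell to its surface, and 9 genes of this presentation machinery were followed here through DNA damage by chemotherapy in a colon cancer line. They are HLA-B, HLA-C and HLA-E, which encode class I heavy chains, B2M, which encodes the light chain, TAP1 and TAP2, which encode the peptide transporter, TAPBP, which encodes the loading chaperone tapasin, and PSMB8 and PSMB9, which encode immunoproteasome subunits. They were chosen by name, from 59172 features in the table, and all 9 were found there. All 9 also passed the filter on low values, but PSMB8 passed it only through libraries of treated groups, where its reads were higher.

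RNA was sequenced from HCT-116, a human colorectal carcinoma line, in 12 libraries that fall into 4 groups of 3. The study concerns how chemotherapy acts on the cGAS-STING pathway, a sensor of DNA in the cytosol that signals to interferon. Untreated wild-type cells were the first group, and wild-type cells given CPT-11 (irinotecan, which traps topoisomerase I on DNA) for 24 h were the second. The third was wild-type cells pretreated for 4 h with lovastatin, an inhibitor of cholesterol synthesis, and then given CPT-11 for 24 h. The fourth received CPT-11 with the phosphatase SHP2 silenced (shSHP2). For these silenced samples the treatment entry also lists the lovastatin pretreatment, while their titles do not, so whether these cells received lovastatin is unsettled and the groups are called by their titles. No group received lovastatin alone, no silenced group went without CPT-11, and no control hairpin is named, so silencing and the hairpin itself cannot be told apart. Whether a group's libraries come from cultures grown apart is not labelled, so the p-values reflect sample-to-sample spread that may be no more than technical.

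Libraries held 14447847 to 16224271 reads assigned to genes. PTPN11, which encodes SHP2, measured 6.01, 6.54 and 7.15 FPKM in the silenced libraries and 43.2 to 55.4 FPKM in the other 9 libraries. CPT-11 replicate 3 stood apart: its correlation with the other CPT-11 libraries was 0.977 and 0.9815, against 0.992 between the other pair, and the trend of its values on gene GC content had a slope of 0.08 log2 units per 10 points of GC, against -0.15 and -0.17. The same slope was -0.14 to -0.01 in untreated libraries, 0.01 to 0.07 after lovastatin and CPT-11, and 0.10 to 0.13 in silenced cells, so it moved with the groups. Results are therefore given with and without that library and, where it changes them, with GC content and gene length corrected for. Of 9 markers of colon epithelium, 5 or 6 had a group mean of at least 1 FPKM, with a summed level of 500 to 594 FPKM, while CDX1, VIL1 and LGALS4 reached at most 0.0353, 0.144 and 0.1645 FPKM in any library. Summed markers of class II presenting cells were 8.33 to 9.28 FPKM in untreated libraries and 11.4 to 14.4 FPKM in the treated ones, led by HLA-DRA and HLA-DMA, with CD74 and CIITA at most at 0.369 and 0.198 FPKM. Summed blood cell markers were 0.227 to 0.300 FPKM in untreated and 0.799 to 1.46 FPKM in treated libraries, with PTPRC at most at 0.0668 FPKM. ITGAM made up most of that sum, with means of 0.157, 0.592, 0.637 and 0.879 FPKM in the order of the groups, and passed as higher with CPT-11 (0.46 ± 0.09, adjusted p = 0.0072). Summed markers of stroma and endothelium were 4.17 to 5.08 and 6.06 to 9.01 FPKM, nearly all from COL1A1 and ACTA2. These lists moved with treatment, and their part in the results was not tested.

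In the class I pathway, proteasomes cut cytosolic proteins into peptides, and the immunoproteasome, whose catalytic subunits replace the constitutive ones, favours cuts that leave peptides fit for class I grooves. The TAP1-TAP2 transporter pumps these peptides into the endoplasmic reticulum, where tapasin holds an empty heavy chain with B2M next to the transporter until a peptide binds. Interferons raise most of these genes through STAT and IRF factors, and NLRC5 with the RFX complex acts on a conserved promoter module of heavy chain and B2M genes. Many colorectal tumours lose parts of this machinery.

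Among the members, 6 have promoter motifs known from this regulation, and the stretches that hold them are shown because the genes behind them responded unequally in these cells. RefSeq promoter windows on GRCh38.p14 were found for 8 of the 9 members, the exception being HLA-E. The 250 bases before each start were searched on both strands for the interferon-stimulated response element (GAAA and GAAA with any 2 bases between, in 3.02% of 35116 promoter windows), the gamma-activated site (TTCNNNGAA, 6.57%), the kappa B site (GGGA, any base, T, any 2 bases and CC, 4.46%) and the Y box (CCAATCAG, 3.81%). Capitals mark matches, each stretch is written 5′ to 3′ on the strand of its gene, and overlapping matches run together. HLA-B lies at chr6:31357189-31357429, HLA-C at chr6:31272131-31272342, TAP1 at chr6:32853815-32853844, TAP2 at chr6:32838781-32838989 and TAPBP at chr6:33314079-33314108, all on the minus strand, and B2M at chr15:44711267-44711486 on the plus strand.
HLA-B: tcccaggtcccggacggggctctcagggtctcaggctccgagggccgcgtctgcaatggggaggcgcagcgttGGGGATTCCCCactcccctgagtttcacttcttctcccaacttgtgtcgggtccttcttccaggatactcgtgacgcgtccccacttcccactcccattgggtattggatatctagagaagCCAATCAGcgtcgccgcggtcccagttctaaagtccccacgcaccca
HLA-C: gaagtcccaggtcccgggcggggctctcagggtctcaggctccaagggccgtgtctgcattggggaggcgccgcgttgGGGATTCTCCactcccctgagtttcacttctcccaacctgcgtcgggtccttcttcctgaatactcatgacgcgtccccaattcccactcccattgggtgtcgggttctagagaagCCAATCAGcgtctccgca
B2M: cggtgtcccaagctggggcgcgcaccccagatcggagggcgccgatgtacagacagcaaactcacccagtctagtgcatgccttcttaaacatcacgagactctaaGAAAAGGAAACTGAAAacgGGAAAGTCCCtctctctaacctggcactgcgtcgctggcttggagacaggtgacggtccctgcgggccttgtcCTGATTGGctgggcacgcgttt
TAP1: ggccgcTTTCGATTTCGCTTTCccctaaat
TAP2: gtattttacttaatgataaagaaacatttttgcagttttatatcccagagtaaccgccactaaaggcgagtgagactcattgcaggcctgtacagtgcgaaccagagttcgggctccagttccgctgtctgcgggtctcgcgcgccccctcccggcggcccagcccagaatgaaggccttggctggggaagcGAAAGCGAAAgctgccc
TAPBP: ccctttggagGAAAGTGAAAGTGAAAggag

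The heavy chain windows of HLA-B and HLA-C were alike, with 226 identical bases over 254 alignment columns (89.0%), and each held a Y box. HLA-B held 2 overlapping kappa B matches and HLA-C held 1. B2M held the Y box on the opposite strand, a kappa B match and a pair of overlapping interferon elements. TAP1 held a pair of overlapping interferon elements on the opposite strand and, outside the stretch shown, a kappa B match that starts 72 bases before the RefSeq start. TAP2 held 1 interferon element and TAPBP a pair of overlapping ones, while none of the 4 motifs was found in the windows of PSMB8 and PSMB9. The matches of TAP1 lie within the 487 bases between the starts of TAP1 and PSMB9, outside the window searched for PSMB9. PSMB8 and TAP1 have 2 RefSeq starts each, and only the start nearest the annotated 5′ end was searched. The gamma-activated site was found in none of the 8 windows. A match describes letters and not a bound site. Only exact matches were marked, so a window without a match, as those of HLA-B and HLA-C for the interferon element, may still hold a variant of it.

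Levels below are in FPKM, which divides reads by gene length and a library factor, and differences are log2 differences of FPKM + 1 with their standard error (SE) from limma, fitted over all 12 libraries. A gene passed when its Benjamini-Hochberg adjusted p over 18047 tested features was under 0.05. The 6 comparisons among the 4 groups share libraries, so they are not independent of one another. As these are bulk samples of a line, a change in all cells and a change in some cells cannot be told apart.

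The 3 heavy chains, which hold the peptide, were all expressed, and HLA-C was the highest. HLA-B (ENSG00000234745, chromosome 6, 31269491 to 31357188, minus strand) measured 40.7, 39.1 and 35.9 FPKM in untreated cells and 49.4, 53.4 and 52.2 FPKM after CPT-11. It measured 59.9, 52.5 and 54.5 FPKM after lovastatin and CPT-11, and 54.8, 53.5 and 57.0 FPKM in silenced cells given CPT-11. Every treated library lay above every untreated one, while the 3 treated groups lay close together. Against untreated cells HLA-B rose by 0.41 ± 0.06 with CPT-11 (adjusted p = 0.0012), by 0.52 ± 0.06 with lovastatin and CPT-11 (adjusted p = 0.00016) and by 0.50 ± 0.06 with silencing and CPT-11 (adjusted p = 0.00014). With GC content and length corrected for, these rises were 0.38, 0.35 and 0.29, and all 3 still passed. Of the exonic length of HLA-B, 18.9% is shared with other annotated genes, chiefly an antisense pseudogene, AL671883.2.

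HLA-C (ENSG00000204525, chromosome 6, 31268749 to 31272130, minus strand) measured 111.7, 102.2 and 94.3 FPKM in untreated cells. It measured 105.9, 109.1 and 146.2 FPKM after CPT-11, 157.5, 137.6 and 131.2 FPKM after lovastatin and CPT-11, and 147.4, 149.7 and 147.5 FPKM in silenced cells given CPT-11. The first pair of CPT-11 libraries lay within the untreated range and replicate 3 lay with the other treated groups. HLA-C did not pass with CPT-11 alone (0.21 ± 0.11, adjusted p = 0.24), and without CPT-11 replicate 3 the difference was 0.07 (adjusted p = 0.59). With GC and length corrected for it stayed at 0.21, with a smaller SE of 0.05, and passed (adjusted p = 0.0064). It rose against untreated cells by 0.46 ± 0.11 in the lovastatin group (adjusted p = 0.011) and by 0.53 ± 0.11 with silencing and CPT-11 (adjusted p = 0.0043), and corrected values were 0.26 and 0.23. The ratio of HLA-C to HLA-B was 261% to 275% in untreated libraries, 214%, 204.5% and 280% in the CPT-11 libraries, where replicate 3 was the highest. Class I heavy chains are near-identical in part, and how reads matching several of them were counted is not stated, which leaves their separate levels uncertain.

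HLA-E (ENSG00000204592, chromosome 6, 30489467 to 30494205, plus strand), a heavy chain that mostly presents leader peptides of other class I chains to NK cell receptors, varied little. It measured 53.1, 51.6 and 50.5 FPKM in untreated cells and 51.5, 54.0 and 56.8 FPKM after CPT-11. It measured 63.0, 61.1 and 57.6 FPKM after lovastatin and CPT-11 and 56.7, 53.9 and 54.6 FPKM in silenced cells. The lovastatin group was the highest and overlapped no other. HLA-E rose by 0.22 ± 0.05 with lovastatin and CPT-11 against untreated cells (adjusted p = 0.0079), which became 0.11 with GC and length corrected for (adjusted p = 0.032). It did not pass with CPT-11 alone (0.06 ± 0.05, adjusted p = 0.47) or with silencing and CPT-11 (0.09 ± 0.05, adjusted p = 0.20), where scaling to total reads gave 0.18 (adjusted p = 0.017) and correction for GC and length gave -0.05 (adjusted p = 0.23).

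B2M (ENSG00000166710, chromosome 15, 44711487 to 44718877, plus strand), the light chain that every class I molecule needs for a stable fold, measured 52.3, 55.7 and 55.4 FPKM in untreated cells. It measured 68.9, 76.4 and 58.4 FPKM after CPT-11, 68.3, 61.8 and 64.1 FPKM after lovastatin and CPT-11, and 57.1, 62.2 and 58.9 FPKM in silenced cells. All treated libraries lay above the untreated ones, and CPT-11 replicates 1 and 2 were the highest of all 12. B2M rose by 0.31 ± 0.08 with CPT-11 (adjusted p = 0.030), and without CPT-11 replicate 3 by 0.41 (adjusted p = 0.00099). Leaving out any of the other 5 libraries of that comparison gave adjusted p-values from 0.065 to 0.093, the value without CPT-11 replicate 2 being 0.22 in log2 difference, and over all alternatives they reached 0.13. The rise with lovastatin and CPT-11 was 0.24 ± 0.08 (adjusted p = 0.049) and failed without any 1 of the 6 libraries compared, with adjusted p-values from 0.068 to 0.15. With silencing and CPT-11 the difference was 0.12 ± 0.08 (adjusted p = 0.28), but 0.30 with GC and length corrected for (adjusted p = 0.00092) and 0.22 with scaling to total reads (adjusted p = 0.048).

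**Figure D1:**
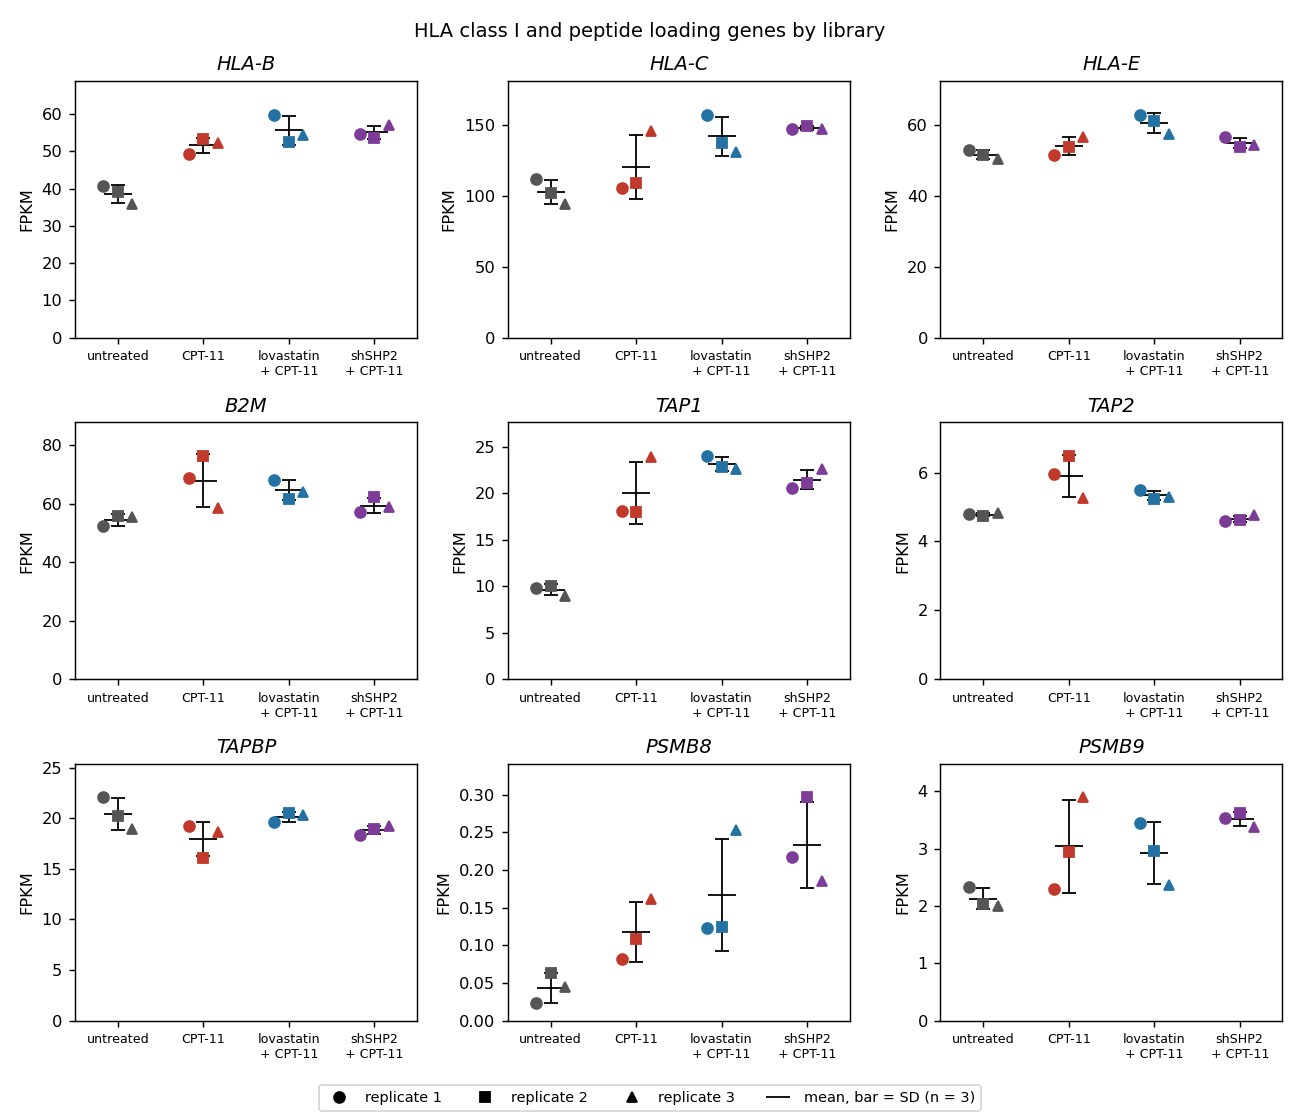
Level of each of the 9 genes in FPKM (vertical axes, each starting at 0) by group (horizontal axis), with circles, squares and triangles for replicates 1, 2 and 3 and bars for the mean ± SD of 3 libraries. TAP1 and HLA-B are higher in every treated library than in every untreated one, and CPT-11 replicate 3 departs from the other CPT-11 libraries in HLA-C, B2M, TAP1, TAP2 and PSMB9.

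The transporter genes parted ways. TAP1 (ENSG00000168394, chromosome 6, 32845209 to 32853978, minus strand) moved the most of the 8 members other than PSMB8, from 9.86, 10.1 and 8.98 FPKM in untreated cells to 18.1, 18.0 and 23.9 FPKM after CPT-11. It measured 24.0, 22.9 and 22.7 FPKM after lovastatin and CPT-11, and 20.6, 21.2 and 22.6 FPKM in silenced cells given CPT-11. The lowest treated library held more than the highest untreated one by a wide margin, and the mean was 2.08 times the untreated mean with CPT-11, 2.41 times with lovastatin added and 2.23 times with silencing. The log2 differences were 0.97 ± 0.09 (adjusted p = 5.5e-05), 1.19 ± 0.09 (adjusted p = 7.9e-06) and 1.08 ± 0.09 (adjusted p = 1.2e-05). Without CPT-11 replicate 3 the first was 0.84. By mean FPKM, untreated cells were the lowest, then CPT-11 alone, silencing with CPT-11 and lovastatin with CPT-11. With GC content and length corrected for, silenced cells differed from CPT-11 alone by -0.03, so the order of that pair was not kept. Over all alternatives the lowest values of the 3 rises were 0.84, 1.05 and 0.91, and all passed. Between neighbours among the treated groups no difference passed in the fit of all libraries.

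TAP2 (ENSG00000204267, chromosome 6, 32821833 to 32838780, minus strand), the partner without which TAP1 transports nothing, measured 4.79, 4.74 and 4.81 FPKM in untreated cells and 5.96, 6.48 and 5.27 FPKM after CPT-11. It measured 5.49, 5.24 and 5.28 FPKM after lovastatin and CPT-11 and 4.58, 4.61 and 4.76 FPKM in silenced cells given CPT-11. The silenced libraries thus lay at or just below the untreated level and below all other treated libraries. TAP2 rose by 0.25 ± 0.07 with CPT-11 (adjusted p = 0.032), and by 0.32 without CPT-11 replicate 3 (adjusted p = 0.0031). That call failed without any 1 of the other 5 libraries (adjusted p 0.073 to 0.099). It did not pass with lovastatin and CPT-11 (0.13 ± 0.07, adjusted p = 0.18) or with silencing and CPT-11 (-0.03 ± 0.07, adjusted p = 0.74). Of the exonic length of TAP2, 32.3% is shared with AL669918.1, a gene on the same strand, so some of its reads may have been assigned elsewhere.

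The ratio of TAP1 to TAP2, both per length, was 202% ± 13 (SD, n = 3) in untreated cells. It was 304%, 278% and 454% in the 3 CPT-11 libraries, 434% ± 4.7 (SD, n = 3) after lovastatin and CPT-11 and 462% ± 13 (SD, n = 3) in silenced cells given CPT-11. All 9 treated libraries exceeded the untreated range of 187% to 212.5%, and silenced libraries exceeded those given lovastatin. This ratio was neither tested nor corrected for GC content, and the GC trend differed between groups and in CPT-11 replicate 3. TAPBP (ENSG00000231925, chromosome 6, 33299694 to 33314387, minus strand), the tapasin gene, measured 19.0 to 22.1 FPKM in untreated cells, 16.1 to 19.2 FPKM after CPT-11, 19.6 to 20.5 FPKM after lovastatin and CPT-11 and 18.4 to 19.2 FPKM in silenced cells. It passed in none of the 6 comparisons, and its largest difference was -0.18 ± 0.07 with CPT-11 (adjusted p = 0.12). With GC and length corrected for, it fell against untreated cells with CPT-11 (by 0.21, adjusted p = 0.028) and with silencing and CPT-11 (by 0.27, adjusted p = 0.0045).

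**Figure D2:**
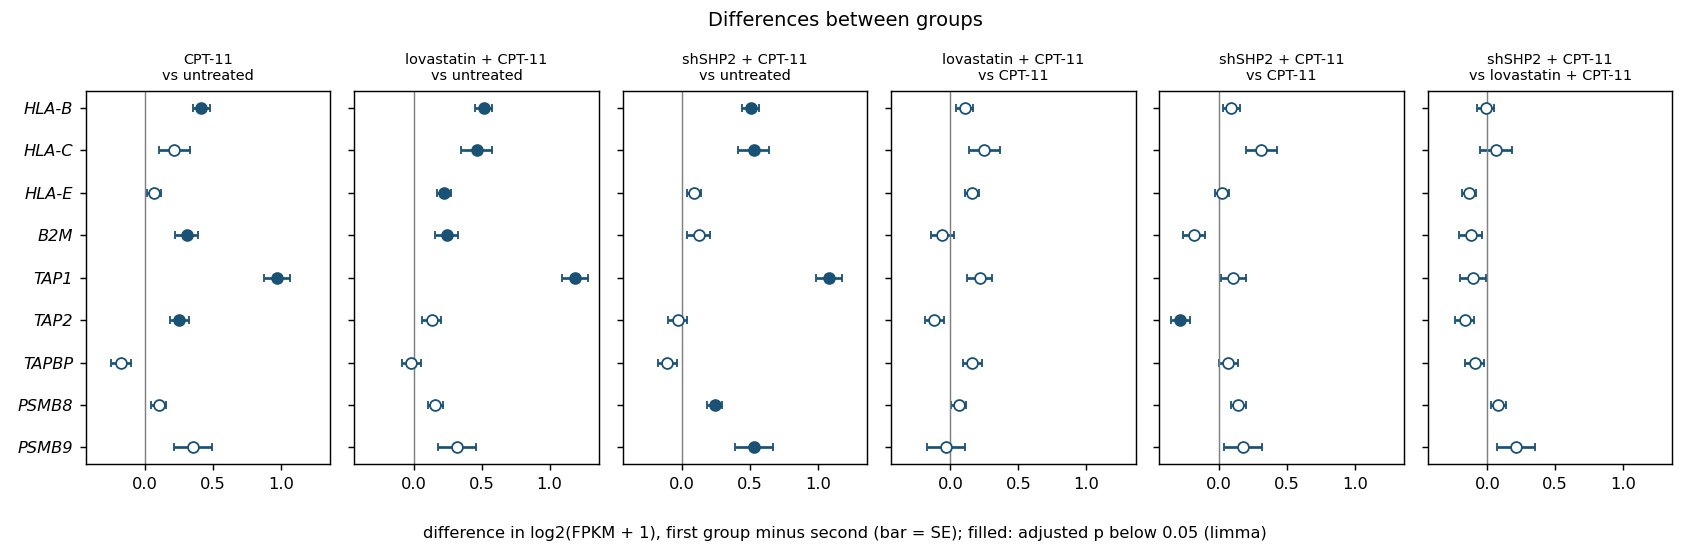
Log2 difference of FPKM + 1 (horizontal axis) with its SE for the 9 genes (vertical axis) in the 6 comparisons, filled where the adjusted p was under 0.05 (for PSMB8 a description only). TAP1 lies near 1 in the 3 comparisons with untreated cells, while in the 3 comparisons among treated groups TAP2 in silenced against CPT-11 cells is the only filled point.

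The immunoproteasome genes were the lowest of the 9. PSMB9 (ENSG00000240065, chromosome 6, 32844136 to 32859585, plus strand), which takes the place of PSMB6, measured 2.34, 2.03 and 2.01 FPKM in untreated cells and 2.29, 2.94 and 3.89 FPKM after CPT-11. It measured 3.45, 2.95 and 2.36 FPKM after lovastatin and CPT-11 and 3.53, 3.63 and 3.38 FPKM in silenced cells given CPT-11. CPT-11 libraries spread from the untreated level to the highest value of all 12, and silenced libraries all lay well above untreated ones. PSMB9 rose by 0.53 ± 0.14 with silencing and CPT-11 (adjusted p = 0.011). It did not pass with CPT-11 alone (0.35 ± 0.14, adjusted p = 0.11), where the value was 0.20 without CPT-11 replicate 3 and 0.49 without CPT-11 replicate 1 (adjusted p = 0.035). With lovastatin and CPT-11 it was 0.32 ± 0.14 (adjusted p = 0.11).

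PSMB8 (ENSG00000204264, chromosome 6, 32840717 to 32844703, minus strand), which takes the place of PSMB5, was barely detected. It had 1, 3 and 2 reads in untreated libraries, 4, 5 and 8 after CPT-11, 6, 6 and 12 after lovastatin and CPT-11, and 10, 15 and 9 in silenced cells given CPT-11. Group totals were 6, 17, 24 and 34 reads. Each treated library held more reads than each untreated one, but the gene was tested only because treated libraries reached the minimum of 10 scaled reads. A test against untreated cells or against CPT-11 alone is conditioned on that, as no library of these groups reached the minimum. Differences of PSMB8 from untreated cells are given as a description: 0.10 ± 0.06 with CPT-11, 0.16 ± 0.06 with lovastatin and 0.24 ± 0.06 with silencing added, the last being 0.12 with GC and length corrected for. Of its exonic length 20.6% is shared with opposite-strand genes, PSMB8-AS1 and PSMB9, and without a stated strand setting their reads cannot be told apart.

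Even at their highest, immunoproteasome genes stood at a small part of the level of their constitutive partners in FPKM. As FPKM divides by merged exon length (3072 bases for PSMB9), the shares below depend on the annotation. The PSMB9 level was 2.90% ± 0.22 (SD, n = 3) of the PSMB6 level in untreated cells, 4.08% ± 0.68 after CPT-11, 3.81% ± 0.45 after lovastatin and CPT-11 and 4.32% ± 0.39 in silenced cells. Untreated libraries reached 3.10% and the lowest treated one 3.33%. For PSMB8 against PSMB5 the means were 0.056%, 0.127%, 0.158% and 0.216% in the same order of groups. PSMB10, the third inducible subunit, stood at 0.768% ± 0.42, 1.14% ± 0.50, 1.49% ± 0.24 and 1.56% ± 0.19 of PSMB7, and there untreated and CPT-11 libraries overlapped. None of these ratios was tested or corrected for GC content.

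**Figure D3:**
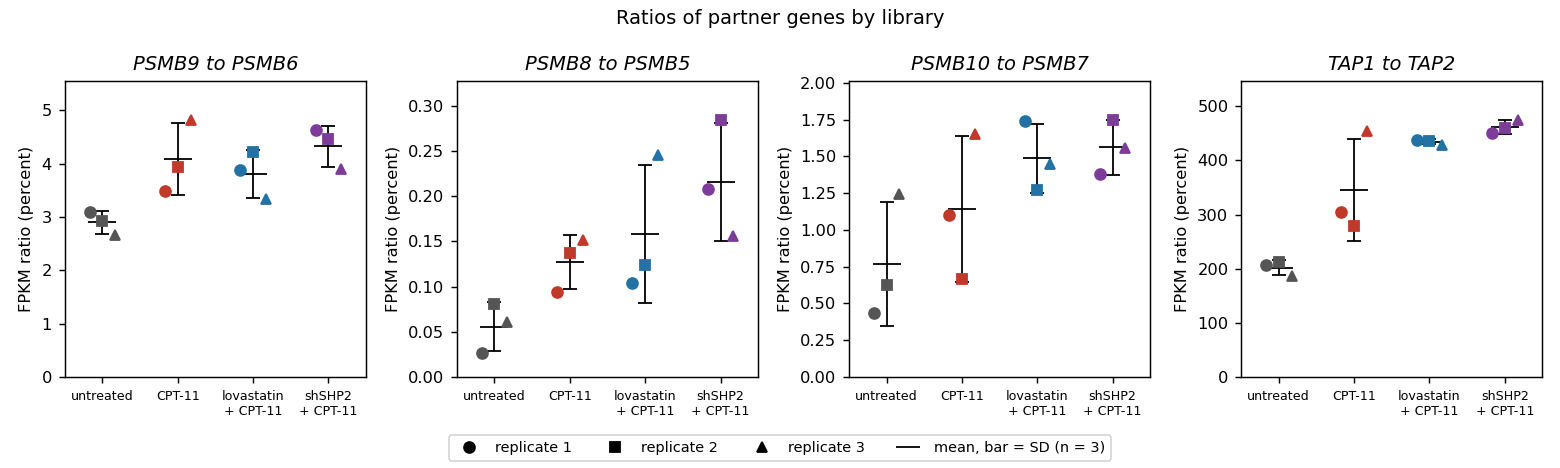
Level of a gene in percent of its partner (vertical axes) by group (horizontal axis), with a symbol per library and the mean ± SD of 3, for PSMB9 to PSMB6, PSMB8 to PSMB5, PSMB10 to PSMB7 and TAP1 to TAP2. TAP1 to TAP2 rises from 202% in untreated cells to 434% and 462% in the lovastatin and silenced groups, with CPT-11 replicate 3 at 454% apart from the other CPT-11 libraries.

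TAP1, PSMB9, PSMB8 and TAP2 sit side by side in the class II region of the major histocompatibility complex. The RefSeq starts of TAP1 and PSMB9 lie 487 bases apart and face away from each other, so both genes read out from a shared interval. Their differences against untreated cells were 0.97 and 0.35 with CPT-11, 1.19 and 0.32 in the lovastatin group, and 1.08 and 0.53 in silenced cells, for TAP1 and PSMB9 in turn. On the other side of PSMB8, TAP2 gave 0.25, 0.13 and -0.03. The pseudocount of 1 shrinks the differences of genes at the level of PSMB9 or TAP2 more than that of TAP1; as ratios of mean FPKM those of PSMB9 were 1.43, 1.37 and 1.65, and those of TAP2 1.235, 1.12 and 0.973.

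**Figure D4:**
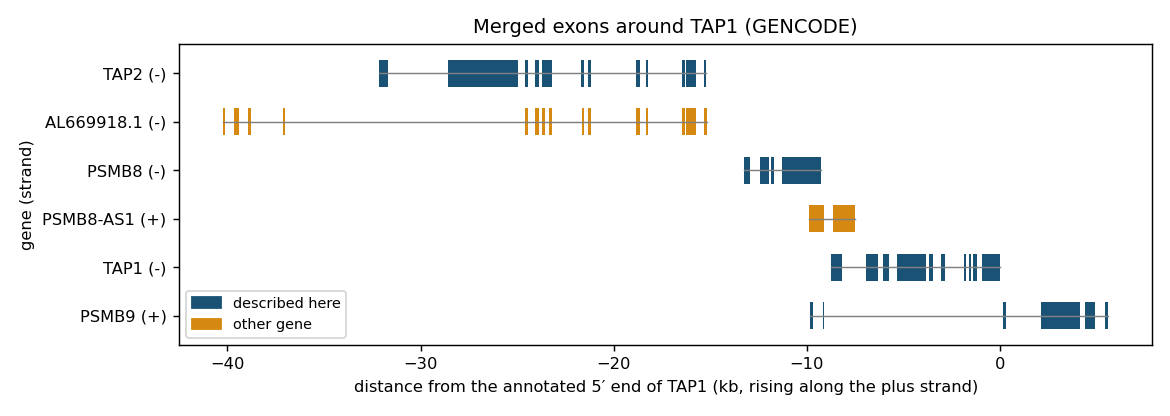
Merged exons (blocks) of TAP1 and its neighbours, a row per gene with its strand, along the distance in kilobases from the 5′ end of TAP1 (horizontal axis). Most PSMB9 exons lie just beyond the 5′ end of TAP1 on the other strand, with a pair of annotated upstream exons near PSMB8, and PSMB8-AS1 overlaps exons of both TAP1 (9.49% of its exonic length) and PSMB8.

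Counted together, 4 of the 9 members passed with CPT-11 against untreated cells, all higher (HLA-B, B2M, TAP1 and TAP2), where 16.6% of all tested features passed and 8.85% were higher. The same 4 passed without CPT-11 replicate 3, but 3 passed without CPT-11 replicate 1, and 2 without CPT-11 replicate 2 or any 1 untreated library. The median difference of the members was 0.25 against -0.01 over all features. With lovastatin and CPT-11 against untreated cells 5 passed, all higher (HLA-B, HLA-C, HLA-E, B2M and TAP1), against a background of 29.0% (14.7% higher). That count was 4 without any 1 of the 6 libraries compared. With silencing and CPT-11, 4 of the 8 members other than PSMB8 passed, all higher (HLA-B, HLA-C, TAP1 and PSMB9), against 37.8% (18.3% higher). PSMB8 is not counted there, as it was tested only because treated libraries reached the minimum of reads. Medians of all 9 members, PSMB8 included, were 0.24 in the lovastatin and in the silenced comparison, against 0.00 over all features. HLA-B and TAP1 passed in all 3 comparisons with untreated cells.

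Adding lovastatin to CPT-11 moved no member past the threshold of limma, where 0.465% of features passed. At an unadjusted p under 0.05 there were 3 (HLA-E, TAP1 and TAPBP), and voom on whole reads also passed 0. The largest differences were 0.25 ± 0.11 for HLA-C, 0.21 ± 0.09 for TAP1, 0.16 ± 0.05 for HLA-E and 0.16 ± 0.07 for TAPBP. Without CPT-11 replicate 3, 5458 features passed in place of 84, among them 4 members: HLA-C rose by 0.40 (adjusted p = 0.0057), TAP1 by 0.34 (adjusted p = 0.0025) and HLA-E by 0.20 (adjusted p = 0.012), and TAP2 fell by 0.19 (adjusted p = 0.035). With GC and length corrected for and all libraries kept, no member passed and these values were 0.04, 0.11, 0.08 and -0.11.

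With silencing, against CPT-11 alone, TAP2 was the 1 member that passed, in a background of 22.0%. It fell by 0.29 ± 0.07 (adjusted p = 0.020), from 5.96, 6.48 and 5.27 to 4.58, 4.61 and 4.76 FPKM, with no overlap. The fall was 0.35 without CPT-11 replicate 3 (adjusted p = 0.00088) and 0.26 with GC and length corrected for (adjusted p = 0.016). It failed without CPT-11 replicate 1 or 2 or silenced replicate 1 or 2 (adjusted p 0.065 to 0.082). HLA-C was higher by 0.31 ± 0.11, which did not pass (adjusted p = 0.070), while it passed under voom (0.31, adjusted p = 0.035) and with libraries scaled to total reads (0.36, adjusted p = 0.045). With GC and length corrected for it was 0.02 (adjusted p = 0.82).

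Leaving out CPT-11 replicate 3 raised the count of that comparison to 6 members and that of all features from 3976 to 7850. HLA-C then rose by 0.46, PSMB9 by 0.33 and TAP1 by 0.24, while TAP2 fell by 0.35 and B2M by 0.29, with adjusted p-values from 0.00088 to 0.049. PSMB8, the remaining member in that count, was higher by 0.17. It was tested only because lovastatin and silenced libraries reached the minimum of reads, so its value is a description. With all libraries kept and GC and length corrected for, the values were 0.02, 0.21, -0.03 and 0.05 for HLA-C, PSMB9, TAP1 and PSMB8, and -0.26 and 0.00 for TAP2 and B2M, and TAP2 alone passed. Against lovastatin with CPT-11, silenced cells differed in no member (limma, background 6.84%), with 2 at an unadjusted p under 0.05 and 0 under voom. The nearest were HLA-E (-0.14 ± 0.05, adjusted p = 0.15) and TAP2 (-0.17 ± 0.07, adjusted p = 0.20). HLA-E passed with GC and length corrected for (-0.16, adjusted p = 0.011). If the silenced cells did receive lovastatin, the groups of this comparison differ in silencing and in the hairpin itself, which cannot be told apart.

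Around the members, 40 further genes of the class I pathway were listed, and 39 were tested. With CPT-11 against untreated cells 6 passed as higher and 1 as lower, a share close to the 16.6% of all features. PSME2, a subunit of the PA28 activator that opens the proteasome, rose from 20.0 to 21.3 FPKM to 28.1 to 31.0 FPKM (0.47 ± 0.07, adjusted p = 0.00066). The aminopeptidases that trim peptides in the endoplasmic reticulum also rose, ERAP1 by 0.38 ± 0.09 (adjusted p = 0.019) and ERAP2 by 0.54 ± 0.10 (adjusted p = 0.0034), from 0.539 to 0.614 FPKM to 1.00 to 1.505 FPKM. So did SEC61A1, the channel of the endoplasmic reticulum (0.31 ± 0.07, adjusted p = 0.0080), RFX5, a part of the RFX complex (0.38 ± 0.05, adjusted p = 0.00074), and STAT2, which carries type I interferon signals (0.35 ± 0.05, adjusted p = 0.00065). IRF9, the DNA-binding partner of STAT2, fell by 0.29 ± 0.08 (adjusted p = 0.034) at a mean of 0.571 FPKM in untreated cells. Without CPT-11 replicate 3 the count was 9 higher and 2 lower. ERAP1 failed without untreated replicate 1 or 2 or CPT-11 replicate 2, and IRF9 without untreated replicate 1 or 3 or CPT-11 replicate 1 or 2. Their adjusted p-values then ran from 0.056 to 0.11.

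STAT2, RFX5 and PSME2 also passed as higher in both other comparisons with untreated cells. STAT2 measured 9.78 to 9.87 FPKM in untreated libraries and 12.6 to 13.7 FPKM in all 9 treated ones, and RFX5 13.1 to 14.05 and 16.6 to 18.8 FPKM. With lovastatin and CPT-11 the list gave 9 higher and 4 lower, where 29.0% of all features passed. There SEC61A1 rose by 0.44, TYK2, a kinase of interferon receptors, by 0.51 and the interferon-regulated factor IRF1 by 0.43, while PSME3, a nuclear proteasome activator, fell by 0.22 and UGGT1, a glycoprotein folding sensor, by 0.26. With silencing and CPT-11 it gave 11 higher and 10 lower, where 37.8% of all features passed. Medians of the list were 0.05, 0.06 and -0.02 in the order CPT-11, lovastatin with CPT-11 and silencing with CPT-11, against -0.01, 0.00 and 0.00 over all features.

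CANX, PDIA3 and HSPA5, chaperones of the endoplasmic reticulum, fell in silenced cells, where HLA-B, HLA-C and TAP1 were higher than in untreated ones. CANX (calnexin, which holds new heavy chains) measured 183 to 208 FPKM in untreated cells, 147 to 195 FPKM after CPT-11, 149.6 to 157 FPKM after lovastatin and CPT-11 and 124 to 135 FPKM in silenced cells. PDIA3 (ERp57, a partner of tapasin) went from 117 to 125 FPKM in untreated to 80.5 to 89.9 FPKM in silenced cells, and HSPA5 (BiP) from 346 to 373 FPKM to 253.5 to 270.7 FPKM. None of these 3 overlapped between silenced cells and any other group. They were named for their small p-values, and the share of all features without such overlap was not counted. Against untreated cells the falls with silencing and CPT-11 were 0.61 ± 0.09 for CANX (adjusted p = 0.00060), 0.50 ± 0.08 for PDIA3 (adjusted p = 0.00087) and 0.46 ± 0.07 for HSPA5 (adjusted p = 0.00069), and 0.44, 0.40 and 0.40 with GC and length corrected for. CALR, the fellow chaperone of CANX, did not pass in that comparison (-0.04 ± 0.06, adjusted p = 0.66), with means of 372.5 FPKM in untreated and 362.6 FPKM in silenced cells.

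Against CPT-11 alone, silenced cells had 2 of the 39 genes higher and 13 lower, where 22.0% of all features passed. Among the 8 with the smallest p, the cytosolic peptidase NPEPPS fell by 0.35 ± 0.07, HSPA5 by 0.34 ± 0.07, the membrane protease SPPL2A by 0.30 ± 0.07, CANX by 0.43 ± 0.09, the interferon gamma receptor chain IFNGR2 by 0.32 ± 0.07, PDIA3 by 0.35 ± 0.08 and ERAP1 by 0.40 ± 0.09, while RFXANK, of the RFX complex, rose by 0.53 ± 0.12. Adjusted p-values of these 8 were 0.011 to 0.017. The count depended on single libraries: it was 25 (8 higher, 17 lower) without CPT-11 replicate 3, 2 without CPT-11 replicate 1, 3 without CPT-11 replicate 2, and 2, 6 and 6 without silenced replicates 1, 2 and 3. With GC and length corrected for, 2 were higher and 7 lower, and NPEPPS (by 0.11), SPPL2A (by 0.09) and ERAP1 (by 0.20) no longer passed. Lovastatin with CPT-11 against CPT-11 alone gave 0 under limma with all libraries (0.465% of all features) and 17 (8 higher, 9 lower) without CPT-11 replicate 3. Silenced cells against lovastatin with CPT-11 gave 3, all lower, where 6.84% of all features passed: HSPA5, IFNGR2 and SPPL2A. That count fell to 1 without any 1 of the lovastatin libraries or silenced replicate 1, and to 0 without silenced replicate 2.

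**Figure D5:**
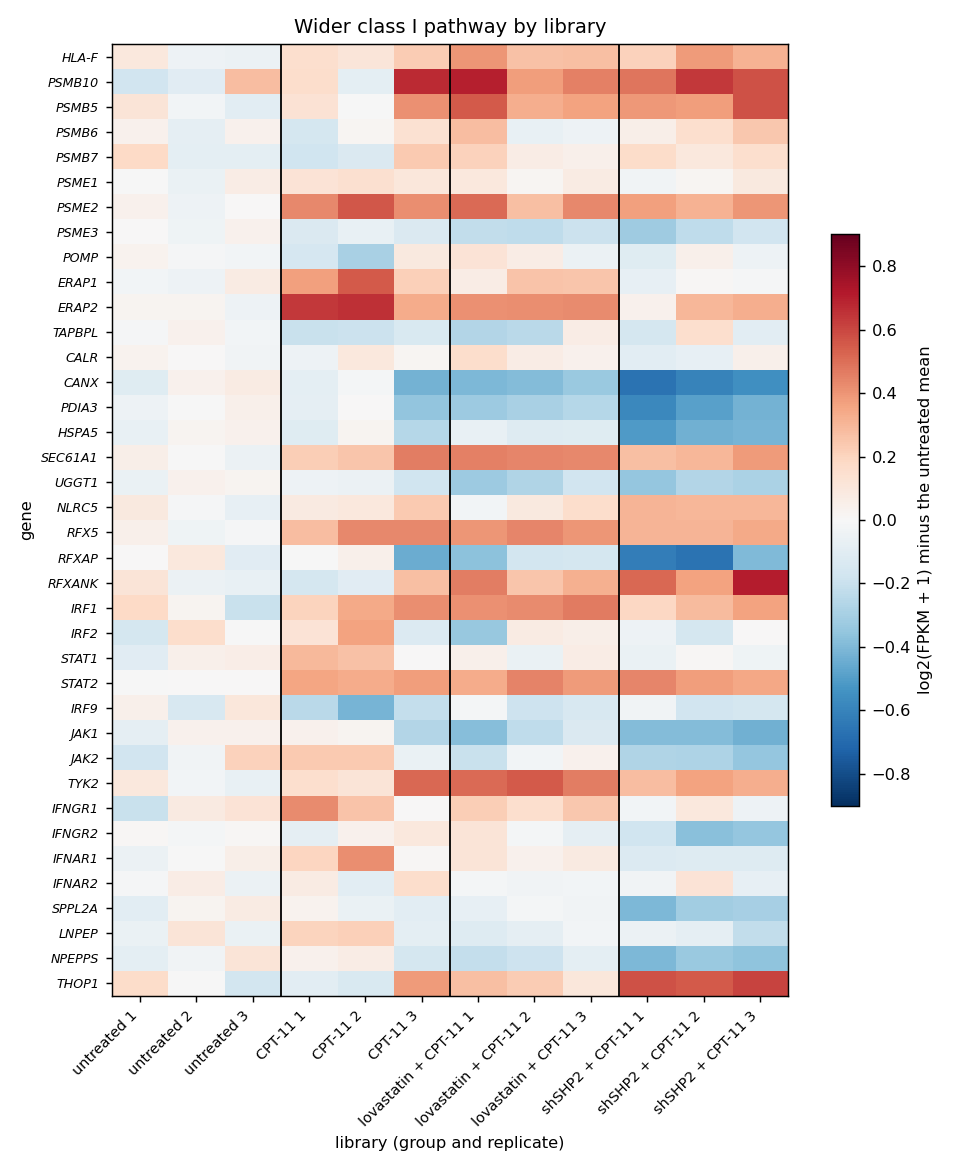
Level of 38 of the 39 tested further class I pathway genes (rows) in the 12 libraries (columns), as log2(FPKM + 1) minus the untreated mean, red for higher and blue for lower. STAT2, RFX5 and PSME2 are red in all 9 treated libraries, and CANX, PDIA3 and HSPA5 are deepest blue in the silenced ones.

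For each member the 2 protein-coding genes with the most similar pattern were sought, by the root mean square (RMS) difference of log2(FPKM + 1) over 12 libraries, each gene centred on its own mean, among 7294 genes (7295 for PSMB8 and PSMB9) with a mean of at least 5 FPKM. TAP1, with a spread (SD) of 0.48 over the libraries, was nearest to MMP14, a membrane-bound matrix protease, at 0.06, and to RPS27L, a known target of p53, at 0.09. MMP14 rose by 0.93, 1.20 and 1.13 and RPS27L by 1.04, 1.12 and 1.04 with CPT-11, with lovastatin added and with silencing, where TAP1 rose by 0.97, 1.19 and 1.08. HLA-B was nearest to UROD and TLDC1 (0.04 and 0.05, against its own SD of 0.22) and HLA-C to FKBP10 and PROSER2 (both 0.05, SD 0.25). B2M was nearest to BEX2 and SPTSSA (0.05 and 0.06, SD 0.15), TAP2 to SLU7 and SEC23B (0.04 and 0.05, SD 0.13), and PSMB9 to RPL13A and OSTF1 (both 0.10, SD 0.24). For HLA-E (ATXN7L3B and PLEKHB2), TAPBP (NF2) and PSMB8 (PCYOX1L and RHPN2) the member itself varied by an SD of only 0.09 to 0.10. No member was among the 2 nearest genes of another, but PSMB8 and PSMB9, with means below 5 FPKM, were not candidates. These likenesses describe 12 libraries whose GC trend differs between groups.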

How the data were processed

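RNA-seq of 12 HCT-116 libraries was deposited as 1 table of FPKM values. Per the labels' protocols, Trizol was used for extraction and NEBNext Ultra for the libraries. Tools listed in the submitters' processing notes are DESeq2 1.16.1, featureCounts 1.5.0-p3, HISAT2 2.0.5 and StringTie 1.3.3b. The build listed is hg19, but coordinates and lengths of all 58735 features with Ensembl identifiers were those of GENCODE 29 on GRCh38, so GRCh38 is used. How strand, overlapping genes and multiply mapped reads were handled is not given in the sources used here. Each deposited FPKM value times gene length was a whole multiple of 1 read (100% of nonzero values within 0.01 of a read), which gave the reads per library. The deposited scaling followed median-of-ratios size factors (0.999 to 1.00 of their mean ratio), so changes are relative to the typical gene.

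limma 3.58.1 (R 4.3.3), with a variance trend, was fitted to log2(FPKM + 1) of all 12 libraries with a mean per group, after tests on simulated data. A feature was tested with at least 10 scaled reads in 3 libraries and 15 in total, which kept 18047 (13732 protein-coding). The pseudocount understates the changes of low genes. Alternatives were a pseudocount of 0.1, 2 other filters, scaling to total reads, a fit of only the groups compared, voom on whole reads, a replicate block and leaving out each library, and, chosen after seeing the data, a GC and length correction (natural splines of 4 df per library, for the 98.5% of tested features with a GC value).

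The members and lists were chosen with earlier results of these data known. Named genes were PTPN11, the members, at most 8 further pathway genes per comparison with the smallest p among those that passed, and the 2 nearest genes of each member. Some genes that meet these rules or belong to the lists are not reported here. CALR and ITGAM were named after their values were seen, and partner subunits for ratios were fixed with the lists. Promoter sequences are from RefSeq (GRCh38.p14), with bases of annotated transcripts trimmed, except that the windows of TAP1 and TAPBP lie wholly within GENCODE exons of these genes, so 30 bases of each are shown.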

Additional observations from a re-analysis of the deposited data

How the results depend on the processing

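Of 750 values of single members under the alternatives, 701 kept their side of the threshold, 28 no longer passed and 21 newly passed. In 21 cases the sign differed from that of the main value, 0 of them with a value that passed in either fit. HLA-B and TAP1 passed in every alternative run in all 3 comparisons with untreated cells. With CPT-11 against untreated cells 1151 features and 2 members passed when no other group was fitted, and 4555 features with GC and length corrected for. Leaving out 1 library gave 1930 to 4418 features and 2 to 4 members, the highest without CPT-11 replicate 3. With lovastatin and CPT-11 against CPT-11 alone 36 features passed when no other group was fitted, 141 under voom, 46 with the replicate block and 314 with GC and length corrected for. There, leaving out 1 library gave 41 to 5458 features and 0 to 4 members, the highest again without CPT-11 replicate 3. With silencing and CPT-11 against CPT-11 alone 1750 features passed without the filter, 451 (0 members) with only these groups and 2358 with the replicate block, and 2 members passed both under voom and with scaling to total reads. Leaving out 1 library gave 1021 to 7850 features and 0 to 6 members, PSMB8 being among the 6. Between silencing and lovastatin, each with CPT-11, 2446 features passed with only these groups, 771 with the replicate block and 2226 (and 1 member) with GC and length corrected for. Leaving out 1 library gave 598 to 731 features and 0 members. Causes of these shifts were not tested.

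Scaling to total reads put the median difference of all features at 0.01 to 0.06, and raised the share of higher features among those that passed in 5 of 6 comparisons. In the remaining one, lovastatin and CPT-11 against CPT-11, it went from 84.5% to 80%. The share went from 53.4% to 65.5% with CPT-11, from 50.6% to 62.4% with lovastatin and CPT-11 and from 48.4% to 62.7% with silencing and CPT-11, each against untreated cells. Against CPT-11 it went from 45.4% to 59.0% with silencing, and from 37.7% to 48.3% for silencing against lovastatin.

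Replicate numbers did not pair the libraries: deviations of libraries with the same number correlated at -0.39 to 0.18, and 2 of 12 correlated best with their own number. Under the replicate block TAP2 with CPT-11 (adjusted p = 0.066) and B2M with lovastatin and CPT-11 (adjusted p = 0.067), both against untreated cells, no longer passed. Depth limits PSMB8, with 6 to 34 reads per group. Without the filter B2M no longer passed with CPT-11 (adjusted p = 0.081) or with lovastatin and CPT-11 (adjusted p = 0.12) against untreated cells. With only 2 groups fitted, B2M (adjusted p = 0.13) and TAP2 (adjusted p = 0.17) no longer passed with CPT-11 against untreated cells, nor TAP2 with silencing against CPT-11 alone (adjusted p = 0.10). Of the further pathway genes, 13 passed with CPT-11 against untreated cells with GC and length corrected for and 4 with only these groups fitted, in place of 7.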
